A study of Mus musculus with 19 samples.

Results

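The genes for the proteins of the cytosolic ribosome were followed across 4 groups of mouse dorsal root ganglia. A gene was taken when its symbol was that of a small (Rps) or large (Rpl) subunit protein, or Rpsa, Rplp0, Rplp1 or Rplp2, and when its mean count over the 19 libraries was at least 100. Of 36682 genes in the table, 87 had such a symbol and 85 passed the count minimum. These 85 members comprised 77 core ribosomal proteins (31 of the 40S and 46 of the 60S subunit), 4 paralogs (Rpl3l, Rpl7l1, Rpl22l1 and Rps27l) and 4 genes that the table annotates as pseudogenes (Rps3a2, Rps3a3, Rpl6l and Rps4l). Symbols and the count minimum chose the members, but the gene set itself was picked with earlier results of these data known. Shares of members called are therefore descriptions and no test of the set. Poly(A) RNA of pooled L3 to L5 ganglia was sequenced in male mice homozygous for the transgene MaFIA. In operated mice the ganglia came from the operated side, and the naive mice had no operation. In MaFIA the Csf1r promoter drives a Fas-based suicide receptor in macrophages and other myeloid cells. AP20187, a dimerizer that triggers this receptor, or its vehicle was injected intraperitoneally on 5 consecutive days. The groups were DMM with AP20187 (destabilization of the medial meniscus, a surgical model of knee osteoarthritis, 8 weeks after surgery, n = 5), DMM with vehicle (n = 5), naive age-matched mice with AP20187 (n = 4) and naive mice with vehicle (n = 5), and every mouse, controls included, carried the transgene. The labels give each library a sample number; where these are not separate animals, p-values measure a spread between samples that may be technical.

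Each cytosolic ribosome carries a single copy of nearly every ribosomal protein, and the genes for these proteins are regulated as a set. Their mRNAs begin with a pyrimidine tract, the 5′ terminal oligopyrimidine or TOP motif, through which LARP1 and mTOR signalling set their translation. Ribosomal protein mRNAs are short and abundant, and dividing and growing cells, such as precursors of blood cells, hold much of them.

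The start regions of members were searched for such runs. RefSeq windows (build GRCm38.p6, 250 bases before to 50 after each annotated start) were found for 61 of the 85 members, in 73 records. A run of at least 8 bases made only of C and T, on the sense strand and between 30 bases before and 50 after the start, occurred in 51 of the 73 records (69.9%) and in 29.0% of all 32851 records. Such a run need not lie at the start itself. A run of at least 8 made only of A and G, the same search on the other strand, occurred in 16.4% of the member records and 32.2% of all records. The letters CCGGAAG, on either strand of the 300 bases, occurred in 35.6% of the member records and 8.86% of all. The 30 bases around the longest C and T run of this search, with the run in capitals, are shown 5′ to 3′ for 11 members. Rps28, Rpl38, Rpl39 and Rpl41 had 4 of the 5 largest increases in naive mice (Rps29, the other, has no record), Rpl37 and Rpsa were called in other comparisons, Rps12 had 1 of the smallest p between vehicle groups, and the rest are the 2 paralog pairs with records for both genes. Rpl22 and Rps27l have 2 records each, and the first in the table is shown.
Rps28: tctgtcccgaggaTTCCTgggtaccgcgtg
Rpl38: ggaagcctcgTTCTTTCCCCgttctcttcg
Rpl39: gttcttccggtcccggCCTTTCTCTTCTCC
Rpl41: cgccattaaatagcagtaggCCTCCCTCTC
Rpl37: ggcgggggtgCTTTCTCTTCCggtctcttt
Rpsa: tccggccgcccgTCCTTTCgcgctacccgg
Rps12: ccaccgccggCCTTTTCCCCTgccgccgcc
Rpl22: ctgactcctccctTTCCCgacagccgactt
Rpl22l1: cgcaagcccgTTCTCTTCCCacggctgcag
Rps27: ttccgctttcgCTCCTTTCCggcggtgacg
Rps27l: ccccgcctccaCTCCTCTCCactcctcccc
In GRCm38.p6 these windows lie at chr17:33824567-33824596 (minus strand), chr11:114668568-114668597 (plus strand), chrX:37085173-37085202 (minus strand), chr10:128549119-128549148 (minus strand), chr15:5116631-5116660 (plus strand), chr9:120127774-120127803 (plus strand), chr10:23787182-23787211 (minus strand), chr4:152325683-152325712 (plus strand), chr3:28805499-28805528 (plus strand), chr3:90213632-90213661 (minus strand) and chr9:66946053-66946082 (plus strand), in that order. The runs of Rpl38 and Rps27, with 10 and 9 bases, span the annotated start itself. Those of Rpl39 and Rpl41, with 14 and 10 bases, end 50 bases after it, at the edge of the search, and the others lie on either side. Within the stretch searched, the longest runs of Rpl22 and Rps28 had 5 bases, and that of Rpsa had 7. The run of Rpl22 begins at the edge of the search, 30 bases before the start. The printed letters just before it are also C and T, so the unbroken run extends past that edge. Rpl22 is counted below among members without a run of at least 8 in the stretch searched. In the drug comparison of naive mice described below, the 48 members with a run of at least 8 had a median log2 fold change of 1.52 (median transcript length 757.5 bases), and the 13 matched members without one had 1.18 (977 bases). A match describes letters in these windows and marks no site.

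Libraries held 60984830 to 74691396 counts, and all 85 members passed the low-count filter among 22778 genes tested. Changes are log2 fold changes from edgeR's quasi-likelihood model of the 4 groups, called at a Benjamini-Hochberg adjusted p under 0.05 over all tested genes. Values per library are CPM, counts scaled to library size after TMM normalization. Sensory neuron markers were present in every library, with 6021 to 11205 summed CPM over 10 genes in naive vehicle and 1111 to 4971 in DMM with AP20187, so the libraries hold the neurons of the labelled tissue. Of the 6 macrophage markers none fell with AP20187, 2 rose in naive mice and 1 rose in DMM mice, and Csf1r, whose promoter drives the transgene, averaged 69.4 CPM in naive AP20187 and 50.9 in naive vehicle. In bulk tissue, fewer cells of a type and less RNA per cell cannot be told apart.

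Per length, the members spanned a wide range of levels. Levels between genes are compared here as FPKM, a count scaled by gene length and library size, averaged over the 19 libraries. The highest were Rps3a1, a 40S protein near the mRNA exit, at 499.6 FPKM, Rplp0, the base of the 60S stalk that recruits elongation factors, at 406, and Rps6, the 40S protein phosphorylated by S6 kinase, at 356. The median core member stood at 82.9 FPKM, with 76.2 for the 31 core 40S genes and 83.9 for the 46 core 60S genes. The lowest core member was Rps28 at 7.30 FPKM, and below it lay Rps3a2 at 4.58, Rps3a3 at 2.97 and Rpl3l at 1.06. The FPKM values depend on the length that was used to make them. For Rps28, the counts and FPKM in the table together imply a length of 1879 bases, against 387 bases for the median protein-coding transcript in GENCODE vM21. Over the 77 core members the implied length was 1.06 times the transcript length for Rps3a1, 2.43 times at the median and 12.7 times for Rps24. Divided by transcript length in place of this, the counts gave 24.9 CPM per kilobase for Rps15a, the lowest core member on that scale, 239 at the median and 927 for Rps24, the highest, with Rps28 at 35.4. The 5130 bases used for Rps15a are a median over annotated transcripts and may not be the length of the expressed one. The order of single members therefore differed between these scales, whereas a comparison of 1 member between groups does not use its length. Ribosomal protein genes have many near-identical processed copies, and how reads were split between a gene and its copies is not given in the sources used here, so the level of a single member is uncertain.

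Ribosomal protein genes took a larger share of the counts in most AP20187 libraries than in most vehicle libraries, and the vehicle libraries of DMM mice lay on both sides. In naive vehicle mice 1, 2, 3, 4 and 5 the 85 members took 1.08, 0.709, 1.60, 1.19 and 0.870% of the counts. In naive AP20187 mice 1, 3, 4 and 5 they took 2.94, 3.61, 1.90 and 1.55%. Mouse 5 of this group, at 1.55%, lay below the highest naive vehicle library, mouse 3, at 1.60%, and the other 3 lay above all naive vehicle libraries. In DMM vehicle mice 32, 33, 34, 63 and 64 the share was 1.08, 0.720, 0.952, 2.15 and 2.91%, and in DMM AP20187 mice 58 to 62 it was 2.75, 2.23, 2.48, 1.71 and 1.91%. Mice 63 and 64 thus had values within or above the range of DMM AP20187, and mice 32, 33 and 34 had values within the range of naive vehicle. The group means were 1.09% ± 0.339 (SD, n = 5) in naive vehicle, 2.50% ± 0.950 (n = 4) in naive AP20187, 1.56% ± 0.932 (n = 5) in DMM vehicle and 2.22% ± 0.418 (n = 5) in DMM AP20187. These shares describe the libraries and carry no test.

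**Figure D1:**
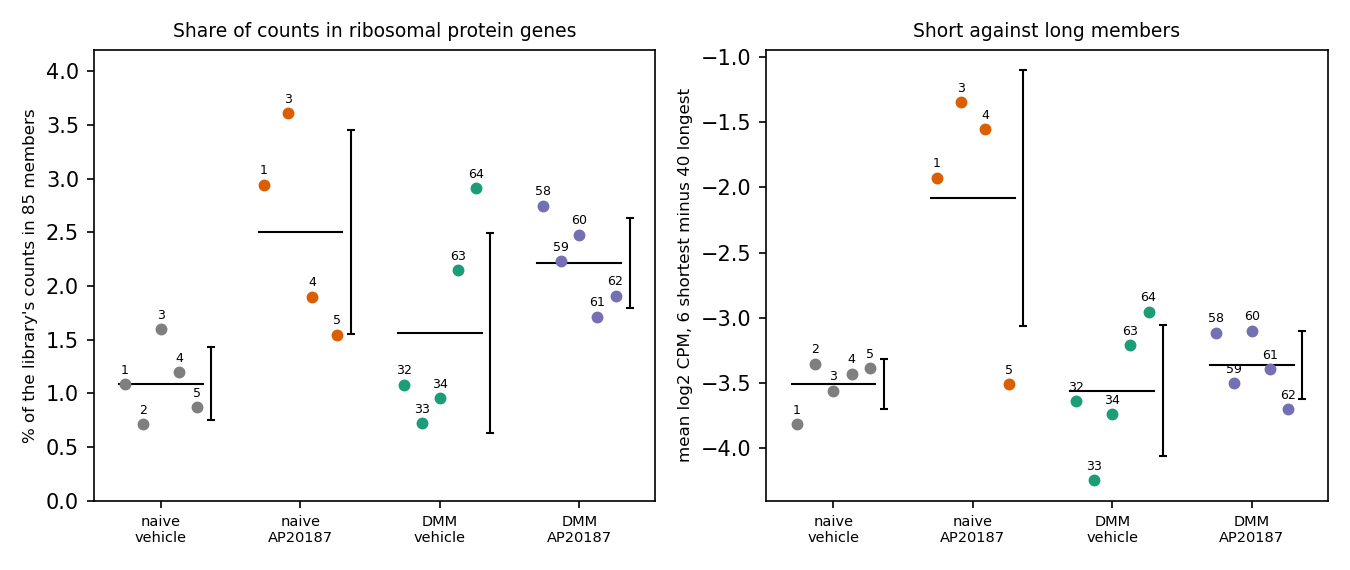
Left, percent of each library's counts in the 85 members, and right, mean log2 CPM of the 6 members with transcripts under 400 bases minus that of the 40 with transcripts over 800 bases; points are libraries with their mouse number, lines are group means and bars are 1 SD. DMM vehicle mice 63 and 64 sit at 2.15% and 2.91%, and naive AP20187 mice 1, 3 and 4 sit apart on the right at -1.93 to -1.35 while mouse 5 lies at -3.51.

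In naive mice, AP20187 went with higher ribosomal protein mRNA across both subunits. Of the 85 members, 58 rose and none fell, where 8.61% of all tested genes rose. The median log2 fold change was 1.45 over members and -0.07 over all tested genes, and 84 of 85 members had a positive value. Of the core genes, 28 of 31 for the 40S subunit and 27 of 46 for the 60S subunit rose, with medians of 1.58 and 1.26. For 38 of 85 members every AP20187 library exceeded every vehicle library, which held for 9.39% of all tested genes. Mouse 3 exceeded every vehicle library for 84 members, mouse 1 for 83, mouse 4 for 67 and mouse 5 for 41. The 9.39% is for all AP20187 libraries together, and no share of all tested genes was computed for single libraries.

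The 5 largest increases were in Rps28, Rps29, Rpl38, Rpl41 and Rpl39, all among the smallest ribosomal proteins. Rps29 (GRCm39 chr12:69204496-69205960), a zinc-binding protein of the 40S head, stood at 8.60, 5.18, 10.8, 8.24 and 8.08 CPM in naive vehicle mice 1 to 5 and at 111, 137, 70.6 and 12.6 CPM in naive AP20187 mice 1, 3, 4 and 5. All 4 AP20187 libraries lay above all vehicle libraries, with mouse 5 close to them and the other 3 far above. Its log2 fold change was 3.34 (SE 0.48, edgeR adjusted p = 4.5e-04), from a mean of 8.19 ± 2.01 (SD, n = 5) to 82.8 ± 54.3 CPM (SD, n = 4). Rps28 (chr17:34038001-34043536), which sits beside the mRNA exit channel, was at 2.86, 4.54, 3.01, 5.89 and 1.63 CPM with vehicle and 40.1, 75.9, 40.4 and 7.22 CPM with AP20187 (log2 fold change 3.51, SE 0.69, adjusted p = 0.0039 by edgeR). Rpl38 (chr11:114559350-114563157), known for its role in the patterning of the mouse skeleton, was at 6.54, 5.35, 14.9, 10.4 and 10.7 CPM with vehicle and 107, 135, 70.1 and 8.03 CPM with AP20187. Mouse 5 lay inside the vehicle range for Rpl38, and the log2 fold change of the group was 3.06 (SE 0.58, edgeR adjusted p = 0.0032). Rpl41, the smallest ribosomal protein, was at 38.9 to 100.01 CPM with vehicle and at 615, 798, 371 and 93.7 CPM with AP20187, mouse 5 again inside the vehicle range. Rpl39, a protein of the peptide exit tunnel, was at 5.80 to 13.6 CPM with vehicle and 106, 142, 61.8 and 18.7 CPM with AP20187.

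**Figure D2:**
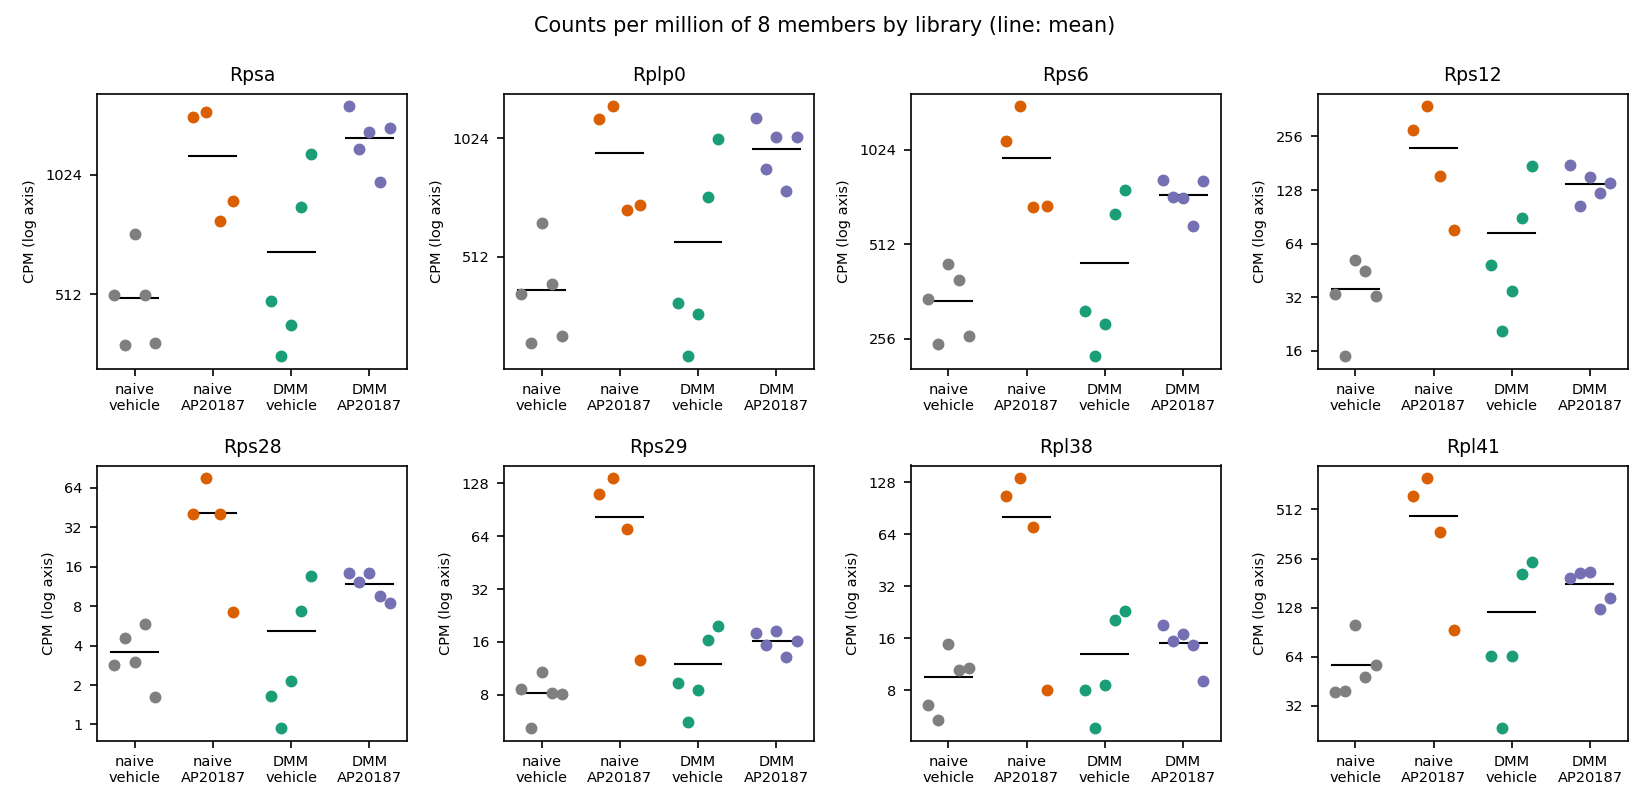
CPM on a log axis of 8 members in each library, with lines at the group means. For Rps29 the naive AP20187 libraries reach 111, 137 and 70.6 CPM with mouse 5 at 12.6, and for Rpsa the DMM vehicle libraries split into mice 32 to 34 at 358 to 492 and mice 63 and 64 at 851 and 1150.0.

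In naive mice the shortest members had the largest differences. The 6 members of up to 400 bases all rose, with a median log2 fold change of 2.94, and of the 17 members of 400 to 600 bases 16 rose, with a median of 1.96. Members of 600 to 800 bases had a median of 1.32 (13 of 22 rose), those of 800 to 1000 bases 1.18 (14 of 21) and those of 1000 to 2000 bases 1.10 (6 of 15). Of the 3 members of 2000 to 4000 bases 2 rose, with a median of 1.03, and the single longer one, Rps15a, a 40S protein, rose by 1.66, above the medians of all classes from 600 to 4000 bases. These lengths are medians over annotated transcripts, which may not be the ones expressed, so the class of a single member is uncertain. Across the 85 members, which are not independent, Spearman's rho between length and log2 fold change was -0.58. Other genes with a mean count of at least 500 showed a like gradient at a lower level, with medians of 0.68, 0.88, 0.49, 0.23 and 0.03 in the same 5 length classes. Of these other genes, 12 of 29, 63 of 172, 73 of 319, 51 of 377 and 396 of 2606 were called in either direction.

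Short members stood highest against long ones in naive AP20187 mice 1, 3 and 4. The mean log2 CPM of the 6 shortest members minus that of the 40 members over 800 bases was -1.93, -1.35 and -1.55 in these mice and -3.51 in mouse 5. In the other 15 libraries it lay between -4.24 (DMM vehicle mouse 33) and -2.95 (DMM vehicle mouse 64). With a per-library offset for transcript length taken from genes outside the members, an alternative chosen after seeing the data, 65 of 85 members rose in naive mice, where 9.62% of tested genes with a length rose, and the median was 1.04. Under that offset Rps29 kept a log2 fold change of 2.25 and Rplp2, of the 60S stalk, missed the threshold at 0.46 (edgeR adjusted p = 0.11). What set the length gradient was not tested.

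**Figure D3:**
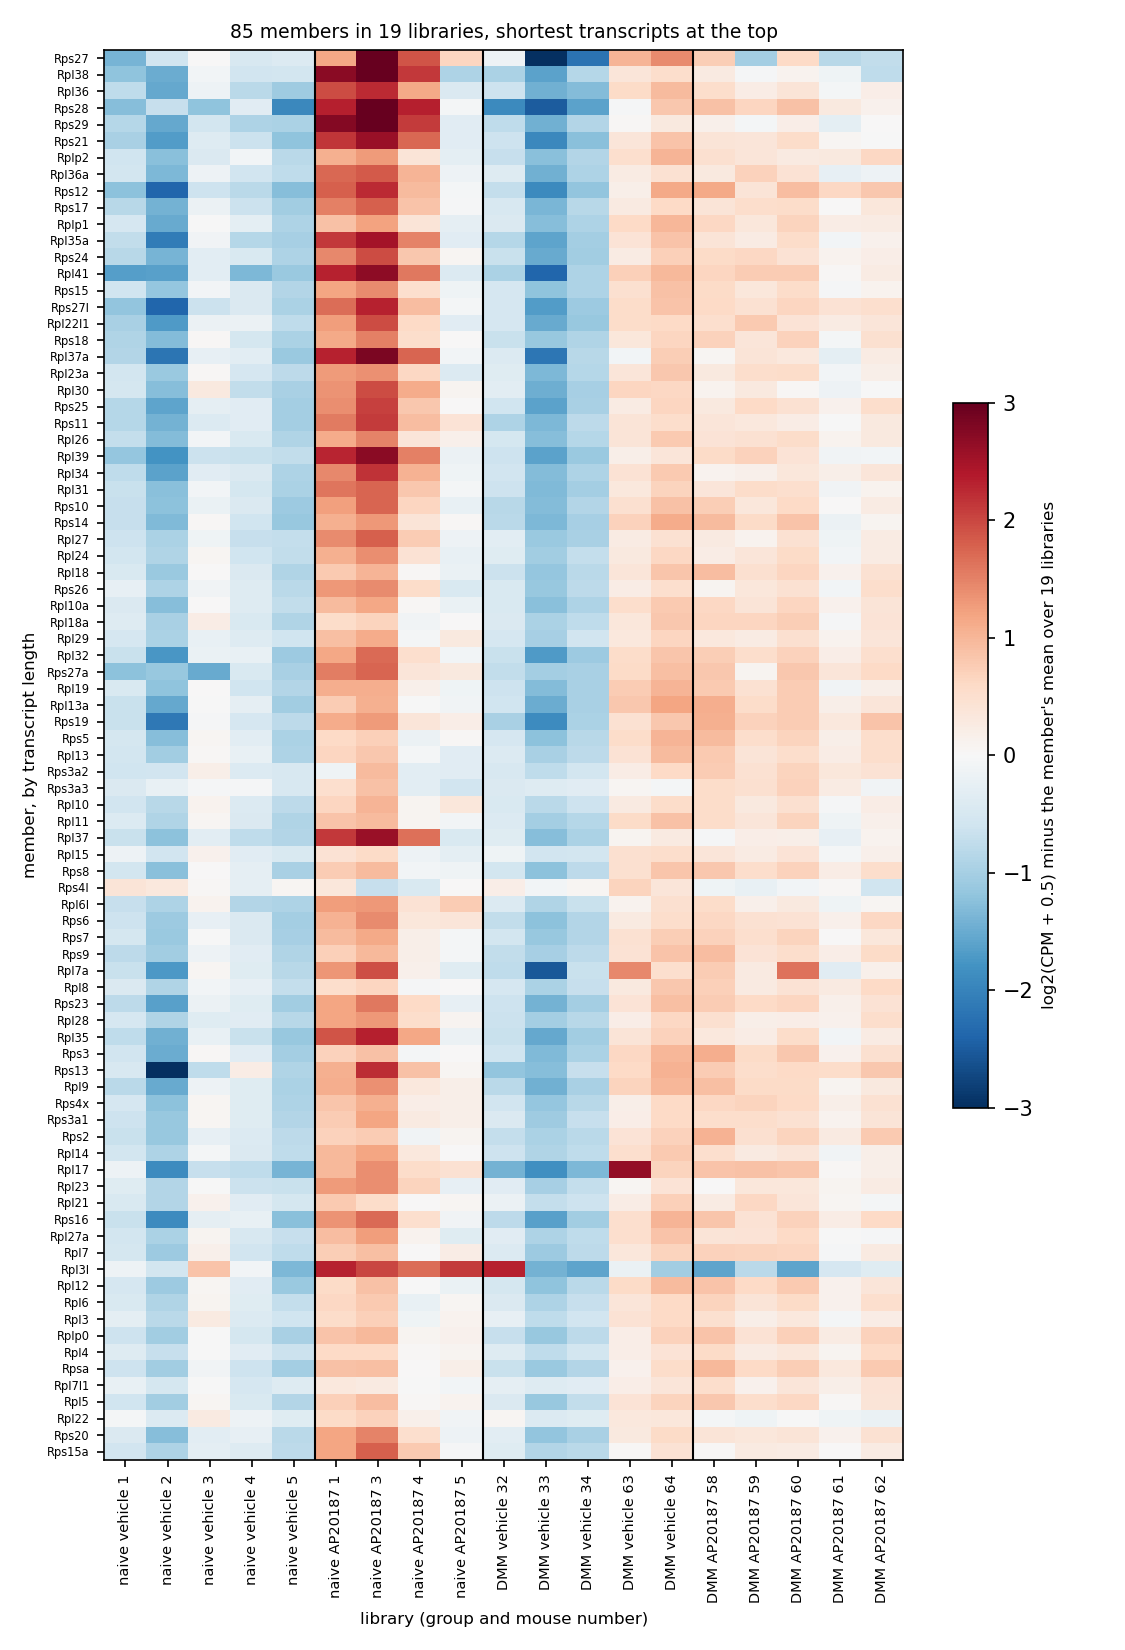
Each row is 1 of the 85 members, ordered by transcript length with the shortest at the top, and each column 1 of 19 libraries; colour is log2(CPM + 0.5) minus the member's mean over libraries. Naive AP20187 mice 1, 3 and 4 are darkest red in the upper rows, DMM vehicle mice 63 and 64 are red while mice 32 to 34 are blue, and Rpl3l follows its own pattern.

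**Figure D4:**
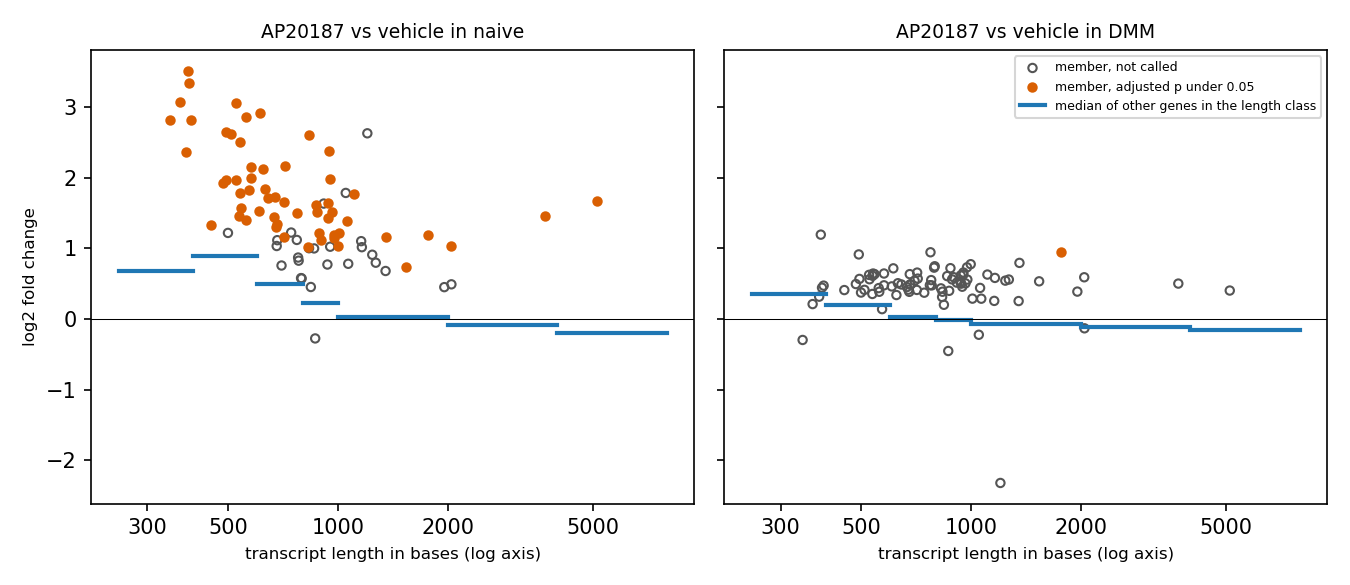
Log2 fold change with AP20187 against transcript length on a log axis, in naive mice (left) and DMM mice (right); points are members, filled where the adjusted p was under 0.05, and bars are medians of other genes per length class. In naive mice the members go from a median of 2.94 up to 400 bases to 1.10 at 1000 to 2000 bases, and in DMM mice the medians of these classes are 0.38 and 0.44.

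Single libraries set how many members were called in naive mice. In place of 58, 28 members rose without naive AP20187 mouse 3, where 3.61% of tested genes rose, and 33 without mouse 1, where 4.17% rose. Without naive vehicle mice 1 and 2, 36 and 33 members rose, where 4.92% and 4.6% of tested genes rose. The share of all genes called was thus also smaller without each of these libraries. The median over members stayed between 1.18 and 1.66 when any 1 of the 9 naive libraries was left out. Markers of other cells moved with the same contrast. The 5 granulocyte precursor markers (such as Mpo and Elane) and the 6 proliferation markers (such as Mki67 and Top2a) all rose, and 5 of 7 neutrophil markers rose, with 775 to 2122 summed CPM in naive vehicle and 6711 to 23992 in naive AP20187. Of the 5 skeletal muscle markers 2 rose, with 11.1 to 403 summed CPM against 1465 to 2218, and none of the 10 sensory neuron markers passed, all with negative values and 6021 to 11205 against 1624 to 8093 summed CPM. No marker of these 5 lists was at 0 in a naive library, while 5 of 6 early B lineage markers fell and up to 3 of the 6 were at 0 in an AP20187 library. The part of these cells in the ribosomal protein result was not tested.

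In DMM mice, AP20187 went with a rise of a single member. Rpsa (GRCm39 chr9:119956755-119961435), the laminin receptor protein at the back of the 40S subunit, was at 1522, 1186, 1310.4, 980.2 and 1342 CPM in AP20187 mice 58 to 62 and at 492, 358, 428, 851 and 1150.0 CPM in vehicle mice 32, 33, 34, 63 and 64. Vehicle mouse 64 lay above AP20187 mouse 61, so the groups overlapped. Its log2 fold change was 0.95 (SE 0.30, edgeR adjusted p = 0.028), and the call was lost when any of AP20187 mice 58, 60 and 62 or vehicle mice 32, 33 and 34 was left out, with adjusted p of 0.052 to 0.074. This was 1 of 85 members, where 11.3% of all tested genes rose. The median log2 fold change was 0.49 over members and -0.10 over all genes, 80 of 85 members had a positive value, and 11 had an unadjusted p under 0.05, a smaller share than that of all genes (8496 of 22778). No member had every AP20187 library above every vehicle library, where 8.71% of all genes did.

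The DMM result turned on which vehicle libraries were used. Vehicle mice 63 and 64 exceeded all of vehicle mice 32, 33 and 34 for 84 of 85 members each. Against mice 32, 33 and 34 alone, 76 of 85 members rose with AP20187, where 17.5% of tested genes rose, and the median was 1.28. Every AP20187 library exceeded these 3 vehicle libraries for 81 members. For the counts of 84 and 81 members, the matching shares of all tested genes were not computed. Mice 63 and 64, set aside here by sample number with their higher values known, were the high vehicle libraries, so these counts show the dependence on them and are no test of the drug. Against mice 63 and 64 alone, no member passed in edgeR, where 4.73% of tested genes were called in either direction, 2 had an unadjusted p under 0.05, and the median was -0.15. Leaving out mouse 64 alone gave 30 members that rose, where 15.5% of tested genes rose. A limma voom fit that weights each library gave 79 members, where 21.9% of tested genes rose, and the length offset gave 30, where 14.6% of tested genes rose. DESeq2 called 7 members, all higher, where 14.5% of tested genes were called higher.

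The labels give these vehicle mice 1 group, and their numbers run as 32 to 34 and as 63 and 64, beside 58 to 62 in the AP20187 group; nothing in the labels calls this a batch. Levels of several marker lists moved with the same split, while those of Schwann cell and endothelium markers overlapped across it. Neutrophil markers summed to 371, 613 and 1922 CPM in mice 32, 33 and 34, to 2509.8 and 7237 in mice 63 and 64, and to 14249 to 23981 in DMM AP20187. Erythroid markers summed to 1296 to 5599 CPM in mice 32 to 34 and to 9284 and 21442 in mice 63 and 64, with 1064 to 4336 in DMM AP20187. Fibroblast markers summed to 1053 to 1896 CPM in mice 32 to 34 and 4066 and 6279.9 in mice 63 and 64. Sensory neuron markers summed to 8081 to 9945 CPM in mice 32 to 34, to 7663 and 3500.2 in mice 63 and 64, and to 1111 to 4971 in DMM AP20187, and 6 of 10 fell with AP20187 in DMM. In the same contrast all 5 granulocyte precursor and all 6 proliferation markers rose, as did 4 of 7 neutrophil markers. No marker of the lists named in this paragraph was at 0 in a DMM library, and their part in the ribosomal protein values was not tested.

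Between DMM and naive mice with vehicle no ribosomal protein gene was called: 0 of 85 members passed in edgeR, where 0% of tested genes did, and Rps27a, Rpl17 and Rps12 had an unadjusted p under 0.05. DESeq2, limma voom and both limma fits on FPKM also called none. In the edgeR fit all 85 log2 fold changes were positive, with a median of 0.51 against 0.03 over all genes. This shift depended on the fit: with voom and sample weights the median was 0.01, with 45 positive and 40 negative values, and with the length offset it was 0.15, with 77 positive and 8 negative. With DMM vehicle mice 63 and 64 alone, 17 members rose, where 1.77% of tested genes rose, and the median was 1.20, whereas with mice 32, 33 and 34 alone the median was -0.26. The mice were split with their member values known, so these values show the dependence on the split and are no test of surgery. Rps12, a 40S protein, was at 33.5, 15.0, 51.5, 44.8 and 32.6 CPM in naive vehicle and 48.3, 20.6, 34.6, 89.7 and 175 CPM in DMM vehicle (adjusted p = 1 by edgeR), the lower 3 values of DMM vehicle being those of mice 32 to 34. Rpl17, a 60S protein at the tunnel exit, was at 37.6, 10.97, 25.7, 24.7 and 15.7 CPM in naive vehicle and 15.5, 11.4, 16.3, 264 and 67.1 CPM in DMM vehicle, where mouse 63 stood far above the other 4. With counts of rows named as pseudogenes of a member added to that member, 0 members had an unadjusted p under 0.05 in edgeR. The largest log2 fold change among members was then 1.08, against 1.71 (Rpl17) without them. This comparison shares the DMM vehicle libraries with the drug comparison in DMM mice and the naive vehicle libraries with that in naive mice.

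Between DMM and naive mice that both had AP20187, Rps29 and Rpl37 fell, 2 of 85 members, where 0.439% of tested genes fell. Rps29 was at 17.9, 15.4, 18.4, 13.1 and 16.1 CPM in DMM AP20187 mice 58 to 62, above naive AP20187 mouse 5 in every library and below mice 1, 3 and 4 (log2 fold change -2.35, SE 0.46, edgeR adjusted p = 0.023). Rpl37, a zinc-binding 60S protein, was at 30.4, 35.6, 35.3, 26.1 and 33.4 CPM in DMM AP20187 and 137, 191, 99.1 and 22.4 CPM in naive AP20187 mice 1, 3, 4 and 5 (log2 fold change -1.81, SE 0.41, edgeR adjusted p = 0.048). For Rpl37, mouse 5 again lay below all DMM AP20187 libraries and the other 3 above. Rpl38 was at 9.05 to 18.97 CPM in DMM AP20187 and missed the threshold (adjusted p = 0.052 by edgeR). Without naive AP20187 mouse 1 or 3, or DMM AP20187 mouse 58, 59, 60 or 62, no member was called in this contrast, without DMM AP20187 mouse 61 or naive AP20187 mouse 4 only Rps29 was, and without naive AP20187 mouse 5 there were 5, where 0.438% of tested genes fell. The median over members was -0.43 in edgeR and -0.12 with voom and sample weights, and in edgeR the 6 shortest had a median of -2.07 against -0.11 for those of 1000 to 2000 bases. The comparison shares the naive AP20187 libraries with the drug comparison in naive mice. Summed skeletal muscle markers lay at 15.1 to 124 CPM in DMM AP20187 and 1465 to 2218 in naive AP20187, and their part in these values was not tested.

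Whether the drug acted on members differently in DMM and naive mice was tested as the interaction. None of 85 members passed in edgeR, where 0.114% of tested genes did, 33 had an unadjusted p under 0.05 (1748 of all 22778 genes did), and DESeq2 called 3 with negative values, where 0.588% of tested genes were called so. The median was -0.94, the smaller difference being in DMM, and with voom and sample weights it was -0.14. Rps29 (log2 -2.90, SE 0.63, edgeR adjusted p = 0.11), Rpl37 (-2.22) and Rpl38 (-2.85) had the smallest p. With DMM vehicle mice 63 and 64 alone, 10 members passed with negative values, where 0.311% of tested genes did, and the median was -1.64. With mice 32, 33 and 34 alone it was -0.15 and none passed. The mice were split with their member values known, so these counts are no test of the interaction.

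Members with well-known roles are given next. Of the 60S stalk, Rplp0 was at 412, 309, 625, 437 and 322 CPM in naive vehicle and 1149.6, 1238, 674 and 694 in naive AP20187, all 4 above all 5 (log2 fold change 1.16, SE 0.33, adjusted p = 0.03 by edgeR). Its partners Rplp1 and Rplp2, which form the flexible tips, had log2 fold changes of 1.22 (adjusted p = 0.06 by edgeR) and 1.33 (adjusted p = 0.038 by edgeR). Rpl5 and Rpl11, which with the 5S RNA can bind MDM2 and stabilize p53, had 1.03 (adjusted p = 0.049 by edgeR) and 1.00 (adjusted p = 0.074 by edgeR), so that Rpl5 passed narrowly and Rpl11 did not. Rps6 was at 342, 246, 443, 393 and 262 CPM in naive vehicle and 1086, 1409, 672 and 676 in naive AP20187 (log2 fold change 1.51, SE 0.33, adjusted p = 0.0073 by edgeR). In DMM vehicle Rps6 was at 314, 225, 286, 637 and 761 CPM and in DMM AP20187 at 817, 720.5, 715, 586 and 816 CPM, with mouse 64 above 3 of the 5 AP20187 libraries.

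Rps19 and Rps14, whose partial loss in blood cell precursors can cause anaemia in people, both rose in naive mice. Rps19 was at 47.4, 16.6, 73.0, 53.0 and 43.2 CPM with vehicle and 164, 181, 96.2 and 86.2 CPM with AP20187 (log2 1.5003, edgeR adjusted p = 0.04), and Rps14 at 92.7 to 239.8 and 239.6 to 576 CPM (log2 1.45, edgeR adjusted p = 0.046). AP20187 mouse 5 lay above vehicle mouse 3, the highest of its group, for Rps19 and just below it for Rps14. Rps27a, made as a fusion of ubiquitin with a 40S protein, rose, with 42.8 to 88.8 CPM in vehicle libraries and 149.9 to 415 CPM in AP20187 libraries (log2 2.17, edgeR adjusted p = 0.0031). Rps4x, encoded on the X chromosome, and Rpl10, which completes the maturing 60S subunit, rose by log2 1.15 and 1.02 (edgeR adjusted p = 0.03 and 0.025). Rpl3, at the peptidyl transferase centre, and Rps3, at the mRNA entry, had log2 values of 0.68 and 1.02 in naive mice and did not pass (edgeR adjusted p = 0.12 and 0.11).

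Paralogs were set against their partners as log2 ratios of counts within a library, with 0.5 added to each count, and compared by two-sided exact permutation tests over 4 pairs and 4 comparisons. None of the 16 passed after adjustment. With these group sizes the smallest exact p is 0.00794 for 5 against 5 and 0.0159 for 4 against 5, so a single test cannot pass over 16. The ratio of Rpl22l1 to Rpl22, which encode alternative forms of a 60S protein that also binds RNA outside the ribosome, was -3.001, -3.59, -3.24, -2.20 and -2.15 in DMM vehicle mice 32, 33, 34, 63 and 64 and -1.85, -1.50, -1.99, -2.04 and -1.85 in DMM AP20187. All AP20187 values lay above all vehicle values, with a mean difference of 0.99 (exact p = 0.00794, adjusted p = 0.085). In naive mice the ratio was -3.36, -3.79, -2.87, -2.47 and -2.84 with vehicle and -1.73, -1.15, -1.98 and -2.66 with AP20187, overlapping through mouse 5 (difference 1.18, exact p = 0.032, adjusted p = 0.1). Taken singly, Rpl22l1 rose in naive mice by log2 1.79 (edgeR adjusted p = 0.019), and Rpl22, whose transcript is the longer, had 0.49 and did not pass (adjusted p = 0.11 by edgeR).

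Rpl3l, the form of Rpl3 known from heart and skeletal muscle, was high in the libraries with high muscle markers. It was at 6.95, 5.56, 4.27 and 5.94 CPM in the 4 naive AP20187 mice, at 0.849, 0.529, 2.20, 0.919 and 0.0935 CPM in naive vehicle, at 6.91, 0.0597, 0, 0.801 and 0.235 CPM in DMM vehicle and at 0, 0.365, 0, 0.569 and 0.662 CPM in DMM AP20187. The high libraries were the naive AP20187 mice and DMM vehicle mouse 32, which also had the highest summed CPM of the 5 skeletal muscle markers (2218, 1878, 1465 and 1936 in naive AP20187 and 1712 in mouse 32). In the other libraries these markers summed to at most 403 CPM. The log2 ratio of Rpl3l to Rpl3 was -7.10, -7.58, -7.12 and -6.88 in naive AP20187 and -9.27, -9.42, -8.46, -9.04 and -12.06 in naive vehicle (difference 2.48, exact p = 0.016, adjusted p = 0.085), and Rpl3l itself was called in none of the 5 contrasts by edgeR (adjusted p of 0.15 to 1).

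Rps27l, a p53-regulated form of the 40S protein Rps27, was at 4.12 to 17.3 CPM in naive vehicle and 76.5, 119.6, 45.5 and 22.6 CPM in naive AP20187 (log2 fold change 2.50, SE 0.51, adjusted p = 0.0047 by edgeR), and Rps27 was at 6.42 to 17.8 and 40.3, 209.9, 66.8 and 28.0 CPM (log2 2.81, edgeR adjusted p = 0.028). Their ratio differed by -0.04 with AP20187 in naive mice and by 1.41 between DMM and naive mice with AP20187 (exact p = 0.9 and 0.048, adjusted p = 0.94 and 0.13). For Rpl7l1, a relative of Rpl7 with a longer transcript, the ratio had a difference with AP20187 in naive mice of -0.57 (exact p = 0.032, adjusted p = 0.1).

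**Figure D5:**
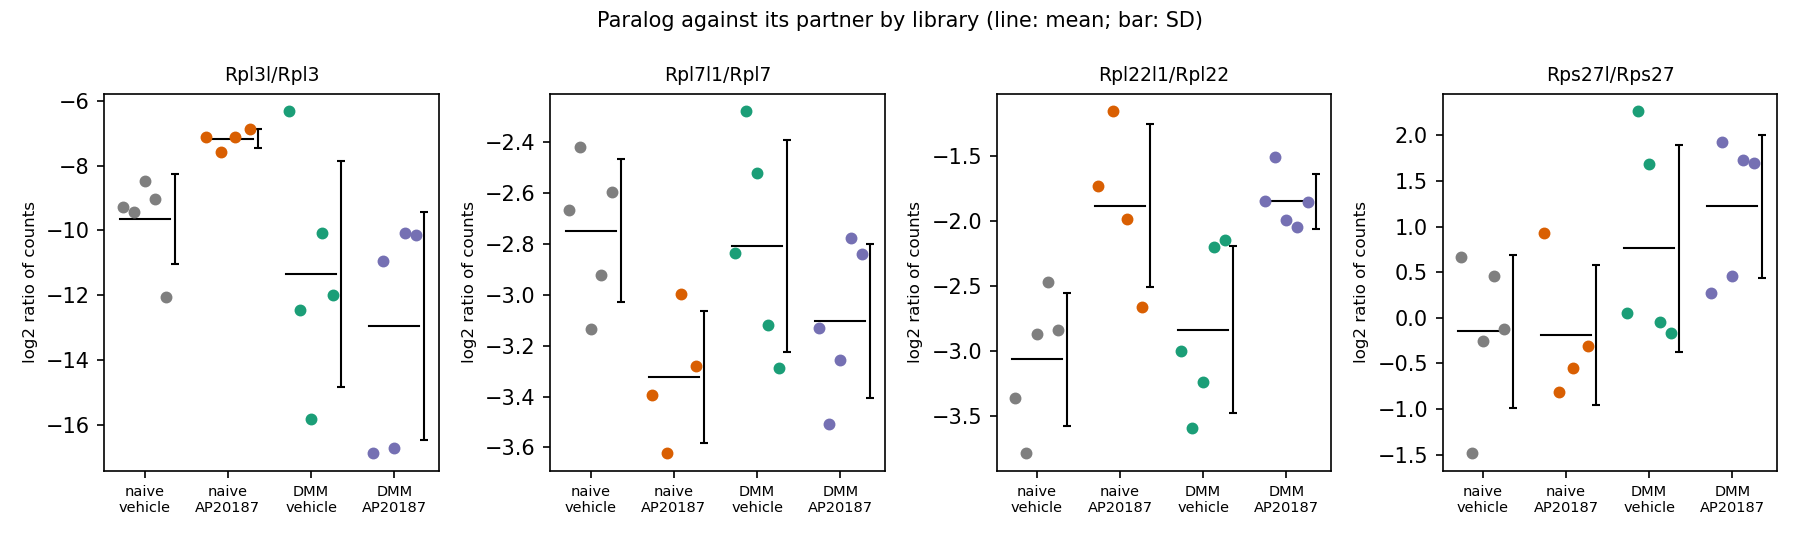
Log2 ratio of counts of each paralog to its partner in every library, with group means (lines) and SD (bars). The Rpl22l1 to Rpl22 ratio of every DMM AP20187 library, -2.04 to -1.50, lies above that of every DMM vehicle library, -3.59 to -2.15, and the Rpl3l to Rpl3 ratio is highest in naive AP20187 and DMM vehicle mouse 32.

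The members annotated as pseudogenes and those at the edges of the rule behaved less alike. Of the 4 pseudogene members, Rpl6l rose in naive mice (log2 1.62, edgeR adjusted p = 0.0027), and Rps4l had the lone negative value among the 85 members there (-0.28, adjusted p = 0.4 by edgeR). Rps3a2 and Rps3a3, named after Rps3a1, were at 2.17 to 4.04 and 1.56 to 2.29 CPM in naive vehicle and did not pass in naive mice (adjusted p = 0.27 and 0.23 by edgeR). The members just above the minimum mean count were Rpl3l with 121, Rps3a3 with 161 and Rps3a2 with 247, and below it lay Rpl32l with 14.5 and Rpl39l with 2.84. Some ribosomal proteins have symbols that the rule does not hold. In naive mice Fau, the precursor of a 40S protein, rose by log2 1.35 (edgeR adjusted p = 0.047), while Rack1, a 40S scaffold, had 1.08 and Rpl36al had 0.93, with edgeR adjusted p of 0.058 and 0.086.

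Other genes of protein synthesis were counted the same way, beside all tested genes, of which 8.61% rose in naive mice and 11.3% rose and 12.4% fell in DMM mice with AP20187. Of 20 genes for elongation factors and other TOP messages, 8 rose in naive mice with AP20187 and none fell, with a median log2 fold change of 0.82. Among them were Tpt1, a TOP mRNA for a small growth-related protein, at 1.48 (edgeR adjusted p = 0.011), the poly(A) binding protein gene Pabpc1 at 1.13 (adjusted p = 0.026 by edgeR) and the elongation factor gene Eef1a1 at 0.89 (adjusted p = 0.031 by edgeR). In DMM mice 2 of the 20 rose, Pabpc1 at 0.88 and the noncoding TOP transcript Snhg1 at 0.99 (edgeR adjusted p = 0.04 and 0.035). Of 21 initiation factor genes 1 rose in naive mice and none in DMM mice. Of 27 genes for ribosome assembly and RNA polymerase I, 1 rose in naive mice, and 5 rose and 1 fell in DMM mice. Of 78 genes for proteins of the mitochondrial ribosome, 3 rose in naive mice with a median of 0.12, and 4 fell in DMM mice with a median of -0.08. Between DMM and naive mice with vehicle none of these genes passed in edgeR, nor did any tested gene.

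Of 13 genes that control TOP messages or ribosome supply, 5 rose and none fell in each drug comparison, against 8.61% of all tested genes that rose in naive and 11.3% in DMM mice. In naive mice Myc, which drives transcription of ribosome genes, had a log2 fold change of 0.97 (edgeR adjusted p = 0.011), its partner Max 0.83 (adjusted p = 0.019 by edgeR) and Eif4ebp1, a repressor of cap-dependent translation downstream of mTOR, 1.57 (adjusted p = 0.024 by edgeR). In DMM mice the same 3 genes had 1.09, 0.60 and 1.31 and passed too. Mtor and Larp1 did not pass in either comparison, with log2 values of -0.54 and -0.15 in naive mice and -0.58 and -0.40 in DMM mice. The naive and DMM comparisons use separate libraries.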

How the data were processed

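RNA of 19 libraries was sequenced with a stranded poly(A) kit, per the labels' protocols. The submitters' processing notes list cutadapt, HISAT2 and StringTie and the build GRCm39 with no roles or versions; the counting step is not given in the sources used here. The authors' deposited table holds raw read counts and FPKM values of 36682 genes, with the same counts as their count matrix of 56691 entries. Members and lists were chosen with earlier results of these data known, and so was the split of DMM vehicle mice by number.

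Counts were fitted with edgeR 4.0.16 (R 4.3.3, TMM, 4 groups, 15 residual degrees of freedom) over 22778 genes kept by its expression filter (minimum count 10), with 5 contrasts. Paralog ratios were compared by exact permutation in scipy 1.17.1. Alternatives used DESeq2 1.42.0, limma 3.58.1 (voom, and FPKM with 1 or 0.1 added), other scalings and filters, pseudogene rows added to members, and single libraries left out. A length offset and an unblocked fit of naive mice 1, 3, 4 and 5 were chosen after seeing the data. Transcript lengths are medians from GENCODE vM21 (build GRCm38), matched by gene identifier for all 85 members. Named in each contrast were the 5 largest called changes each way, or the 3 smallest p where none passed, with paralog pairs, the 3 highest and lowest FPKM, 14 members of known role and ribosomal genes outside the symbol rule, of which 1 item is not reported here. Rps24 and Rps15a (extremes per transcript length), Rpl6l, Rps4l and genes of the other lists were named after their values were seen.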

Additional observations from a re-analysis of the deposited data

Results flagged for a closer look

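In 5 of 152 groups of 4 or 5 libraries (named members, paralog ratios and shares of counts), the highest or lowest library lay far from the rest by Dixon's criterion, and chance flags about 1 in 20 such groups. Rpl17 was at 264 CPM in DMM vehicle mouse 63, against 11.4 to 67.1 CPM in the other 4 DMM vehicle libraries. Rpl3l was at 6.91 CPM in DMM vehicle mouse 32, against 0 to 0.801 in the other 4, and that library also held 1712 summed CPM of skeletal muscle markers. Rps3a2 was at 7.24 CPM in naive AP20187 mouse 3, against 2.69 to 3.20 in the other 3, and at 4.04 CPM in naive vehicle mouse 3, against 2.17 to 2.50 in the other 4. The log2 ratio of Rpl3l to Rpl3 was -12.06 in naive vehicle mouse 5, against -9.42 to -8.46 in the other 4. Mouse 3 had the highest share of counts in members in its group in both naive groups.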

How the results depend on the processing

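For AP20187 in naive mice, 58 members were called and 28 to 68 with any 1 library left out, while the median of 1.45 ran from 1.18 to 1.66. Among the other settings the count ran from 45 to 72, all on the higher side, and no median moved past the spread between libraries. Calls over all tested genes, in either direction, numbered 2548 of 22778 in the edgeR fit. They numbered 994 of 23440 where 28 members were called and 3449 of 23515 where 68 were. Where 45 and 72 members were called, they numbered 1388 of 20425 and 4542 of 22778. For AP20187 in DMM mice, 1 member was called in the edgeR fit, 7 with DESeq2, 4 with log2(FPKM + 1), 4 with log2(FPKM + 0.1), 79 with limma voom and sample weights, 2 with only the groups compared, 0 against vehicle mice 63 and 64, 76 against vehicle mice 32, 33 and 34, and 30 with the length offset. The median of 0.49 became 1.18 with voom, -0.15 against mice 63 and 64 and 1.28 against mice 32 to 34. With 1 library left out the count was 0 to 30 and the median 0.30 to 0.83. Over all tested genes, 5410 of 22778 were called either way in the edgeR fit, 6945 with DESeq2 and 10676 with voom. With log2(FPKM + 1) and log2(FPKM + 0.1) these were 6183 and 5992 of 21496. They were 4097 of 20656 with only the groups compared and 6242 of 22173 with the length offset. Against mice 63 and 64 they were 1156 of 24459, and against mice 32 to 34 8450 of 23283. For DMM against naive mice with vehicle, 17 members were called with mice 63 and 64 alone (median 1.20), and the median of 0.51 was -0.26 with mice 32 to 34 alone, 0.01 with voom and 0.15 with the length offset. With 1 library left out 0 were called and the median was 0.18 to 0.68. Of all tested genes, 0 of 22778 were called in the edgeR fit and 541 of 24459 with mice 63 and 64 alone. For DMM against naive mice with AP20187, the count of 2 became 1 with library totals in place of TMM, 1 with upper quartile factors, 1 without the filter, 7 with DESeq2, 1 with log2(FPKM + 0.1), 5 with voom (median -0.12), 0 with only the groups compared, 14 with the length offset and 0 to 5 with 1 library left out (median -0.66 to -0.13). For the interaction, DESeq2 called 3, mice 63 and 64 alone gave 10 (median -1.64), the length offset gave 1, and 1 library left out gave 0 to 3 (median -1.15 to -0.63, the 3 without naive AP20187 mouse 5). The interaction's median was -0.14 with voom and -0.15 with mice 32 to 34. Over all tested genes the interaction had 26 of 22778 called in edgeR and 224 with DESeq2. It had 90 of 24459 with mice 63 and 64 alone and 32 of 22173 with the length offset. DMM against naive mice with AP20187 had 160 of 22778 genes called in edgeR, 1109 with DESeq2 and 2458 with voom. It had 111 of 20738 with only the groups compared and 426 of 22173 with the length offset. As a share of summed FPKM, members took 2.84% in DMM AP20187 and 1.70% in naive vehicle. For the called named members, 433 recomputed values held their call and 116 missed the threshold. None of these changed sign, and all 200 recomputed paralog ratios stayed on their side. The causes of these differences were not tested.

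With the replicate block over naive mice 1, 3, 4 and 5 in both groups, 69 members were called (median 1.24), against 45 without the block in the same 8 libraries (median 1.36). Over all tested genes, 2352 of 20425 were called with the block and 1388 of 20425 without it, so calls rose beyond the members too. Deviations of same-numbered samples correlated at 0.0078, 0.25, -0.053 and 0.22, and not every sample correlated best with its own number. The labels do not say that a number pairs samples, and so few correlations cannot decide it. Groups of 4 or 5 libraries limit the precision. How reads that match both a member and its processed copies were split in these counts is not given in the sources used here.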

Other observations

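The table also held 242 rows named as pseudogenes of a member, with -ps in the symbol. These rows took 0.0532 to 0.272% of the counts of a library. Their share was highest in naive AP20187 mouse 3, which also had the highest share in members, and lowest in DMM vehicle mouse 33.

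The 77 core members moved together within single libraries. All 77 lay below their own mean log2 CPM over libraries in naive vehicle mice 1, 2 and 5 and in DMM vehicle mice 33 and 34, and 76 did in naive vehicle mouse 4 and DMM vehicle mouse 32. In naive AP20187 mice 1 and 3 and DMM vehicle mouse 64 none did, and in DMM vehicle mouse 63 and DMM AP20187 mouse 60 only 1 did. Naive vehicle mouse 3 (49 of 77 below), naive AP20187 mouse 5 (44) and DMM AP20187 mouse 61 (31) lay near the mean. Such counts per library were not made for all tested genes.

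In DMM mice with AP20187, the 48 members with a C and T run of at least 8 bases in the stretch searched around the start had a median log2 fold change of 0.49, and the 13 matched members without one had 0.62. In naive mice the members without a run had the lower median, so the order of these medians differed between the drug comparisons, with no test made.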
